A study of Mus musculus with 6 samples.

Results

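The genes described here are 10 genes of the smooth muscle contractile apparatus, *Acta2*, *Tagln*, *Myh11*, *Myl9*, *Mylk*, *Tpm1*, *Tpm2*, *Cnn1*, *Des* and *Cald1*, followed through the cells of the vessel wall that came along in astrocyte sorts of the mouse amygdala. The 10 were chosen by name, and all 10 were among the genes counted. They were described in 4 classes of cells set by counts of unique molecular identifiers (UMIs, 1 per captured transcript molecule). Pericytes had at least 10 UMIs of *Vtn* and *Rgs5* together, at most 5 of the astrocyte transporters *Slc1a2* and *Slc1a3*, under 5 of *Acta2* and under 3 of *Dcn*. The *Acta2* ≥5 cells and the *Dcn* ≥3 cells were set by the count of that gene alone, and astrocytes had at least 20 UMIs of *Slc1a2* and *Slc1a3* with at most 3 of *Vtn* and *Rgs5*. Of 13546 cell barcodes, 2211 were pericytes (860, 649 and 702 in libraries 1, 2 and 3), 22 were *Acta2* ≥5 cells (10, 5 and 7), 41 were *Dcn* ≥3 cells (12, 15 and 14) and 8757 were astrocytes. A further 2517 barcodes fell in no class and 2 in more than 1. *Acta2* therefore sets 2 of the classes and is given as a description, with no test.

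The mice listed for these libraries were adults in 4 groups, all male wild-type C57BL/6N by the labels. NoFC mice were not shocked, FC mice were fear conditioned, NoFR mice were conditioned and stayed in the home cage without recall, and FR mice were conditioned and recalled the fear memory on the next day. By the methods the amygdala was taken 90 min after the start of the behaviour. For FC mice this was after conditioning. The paper places NoFR mice a day after conditioning with no recall session, so FC and NoFR mice also differ in the time since conditioning. The tissue was dissociated with actinomycin D, triptolide and anisomycin, which block transcription and translation in all groups, before an ACSA2 sort for astrocytes. The 3 libraries each pooled several mice marked by hashtag antibodies, so a library is a pool and not a group, and the vessel cells are what the sort let through rather than a sample of the vessel wall. Barcodes without a single hashtag listed for a mouse are in the class sums too, and their group is not known.

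Mural cells wrap the vessel. Smooth muscle cells of arteries and arterioles contract when calcium and calmodulin activate myosin light chain kinase (*Mylk*), which phosphorylates the regulatory light chain (*Myl9*) of smooth muscle myosin (heavy chain *Myh11*), and the myosin then pulls on filaments of smooth muscle α-actin (*Acta2*). Tropomyosins (*Tpm1*, *Tpm2*), calponin (*Cnn1*), caldesmon (*Cald1*) and transgelin (*Tagln*) bind the actin filament, and desmin (*Des*) is the intermediate filament of muscle. Pericytes sit on capillaries and are generally held to have little α-actin, and smooth muscle contractile genes are known targets of serum response factor (SRF) and its cofactor myocardin, which act through the CArG box, 2 C bases, 6 A or T bases and 2 G bases.

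Because the CArG box is the element that contractile genes are known to share, the promoters were searched for it. On the GRCm38 assembly *Acta2* lies at chr19:34241090-34255590 and *Myl9* at chr2:156775420-156781658, and these were the 2 members with a match. RefSeq promoters were given for 8 of the 10 members, all but *Tagln* and *Myh11*. Within the 250 bases before the start site, *Acta2* held 2 near matches with 1 mismatch and *Myl9* held 1 exact and 1 near match, each shown with 10 bases on either side and the matching bases in capitals, 5′ to 3′ on the strand of the gene.
Acta2, 84 to 75 bases before the start, chr19:34255438-34255467, minus strand: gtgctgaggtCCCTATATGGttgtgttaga
Acta2, 34 to 25 bases before the start, chr19:34255388-34255417, minus strand: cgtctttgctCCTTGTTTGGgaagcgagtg
Myl9, 161 to 152 bases before the start, chr2:156775293-156775322, plus strand: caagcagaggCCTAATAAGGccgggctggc
Myl9, 99 to 90 bases before the start, chr2:156775355-156775384, plus strand: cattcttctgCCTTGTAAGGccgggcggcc
An exact box stood in 1.47% of 32851 mouse promoters of the same length, a box with 1 mismatch in 7.24% and either in 8.59%; the motif reads the same on both strands. GENCODE starts *Acta2* further upstream than RefSeq does, so that both *Acta2* stretches lie in the first exon, in the 5′ UTR, of a GENCODE transcript, while those of *Myl9* lie in no exon. A match is a description of these letters and not a shown binding site.

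The names of the classes were set against markers that are neither members nor genes of the rule. Summed over 9 such pericyte markers, the level was 13143 to 13321 CPM (UMIs per 1000000 UMIs of the class) in pericytes of the 3 libraries and 2726 to 8135 CPM in *Acta2* ≥5 cells. In *Dcn* ≥3 cells it was 5403 to 14534 CPM. Of 8 smooth muscle markers such as *Pln* and *Sncg*, 7 had UMIs in *Acta2* ≥5 cells, with *Rergl* at 0, and their sum was 2242 to 3360 CPM there against 92.0 to 107 CPM in pericytes, where *Rergl* and *Tesc* were at 0. Thus the *Acta2* ≥5 cells as a class carried smooth muscle markers and pericyte markers, though *Pln* and *Kcnj8* were not always in the same cells, as given below. The pericyte markers were uneven there. *Kcnj8* was 56.9, 362 and 22.7 CPM in *Acta2* ≥5 cells against 1012, 1114 and 1059 CPM in pericytes. *Notch3* was 854, 1952 and 625 CPM against 1028, 1043 and 1067 CPM. Fibroblast markers (8 genes, without *Dcn*) summed to 2566 to 9021 CPM in *Dcn* ≥3 cells, with UMIs of each, and to 1215 to 1256 CPM in pericytes. The *Dcn* ≥3 cells as a class thus carried fibroblast markers and pericyte markers, though *Kcnj8* and *Col1a1* lay largely in different cells, as given below. In *Acta2* ≥5 cells the fibroblast markers summed to 91.1 to 534 CPM, with *Dcn*, *Lum*, *Col1a1*, *Col3a1*, *Pdgfra* and *Slc6a13* at 0. Markers of neurons, oligodendrocytes and red blood cells were at 0 in *Acta2* ≥5 and *Dcn* ≥3 cells. Endothelial markers (6 genes) summed to 36.2 to 56.9 CPM in *Acta2* ≥5 cells, 39.2 to 296 CPM in *Dcn* ≥3 cells and 162 to 182 CPM in pericytes, with *Cldn5* and *Ly6c1* at 0 in *Acta2* ≥5 and *Dcn* ≥3 cells. Microglial markers (5 genes) summed to 36.2 to 56.8 CPM, 24.7 to 31.3 CPM and 33.1 to 42.1 CPM in the same order, with *C1qa* at 0 in all 3 classes. The part of these cells in the results was not tested.

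Some cells stood apart. Astrocyte markers (8 genes, *Slc1a2* and *Slc1a3* of the rule included, all with UMIs in each class) summed to 108 to 4237 CPM in *Acta2* ≥5 cells and 457 to 3731 CPM in *Dcn* ≥3 cells, against 226 to 295 CPM in pericytes. The rule caps *Slc1a2* and *Slc1a3* in pericytes alone of these classes. Over the 6 other genes the sums were 36.2 to 1048, 111 to 878 and 62.7 to 97.0 CPM in the same order. The top value in *Acta2* ≥5 cells belonged to library 1, where 1 cell with 277 UMIs of *Slc1a2* and *Slc1a3* gave 20.6% of the class total. In library 3, 1 cell of 41593 UMIs with 8.58% mitochondrial UMIs gave 47.2% of the class total. Both cells are part of the class sums. Each held a smaller share of the UMIs of every tested member than of the class total, which lowers the CPM of members in these libraries. Median UMIs per cell were 4820 to 5192 in pericytes, 5958 to 10234 in *Acta2* ≥5 cells, 6425 to 6548 in *Dcn* ≥3 cells and 9667 to 10281 in astrocytes. The libraries shared 8, 7 and 3 barcodes pair by pair.

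**Figure D1:**
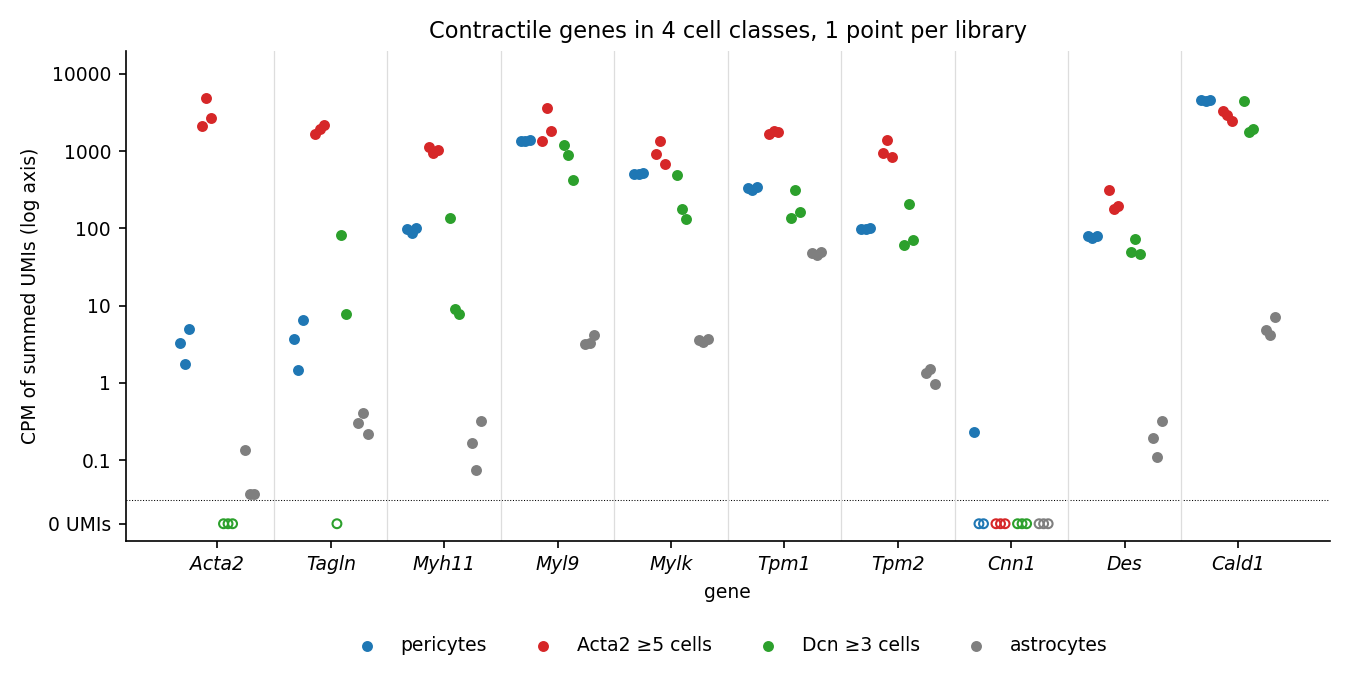
Level of each of the 10 contractile genes in CPM of the summed UMI counts (vertical log axis), by cell class (colour), with 1 point per library; open circles below the dotted line are libraries with no UMI. *Cald1*, *Myl9* and *Mylk* sit high in pericytes and in *Acta2* ≥5 cells, *Acta2* and *Tagln* reach their highest levels in *Acta2* ≥5 cells (1652 to 2158 CPM for *Tagln*), and *Tpm1* is the member with the highest level in astrocytes (45.5 to 49.3 CPM).

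The actin itself was found in few cells. *Acta2* had 608 UMIs in 54 of all barcodes, and 91.9% of these UMIs lay in the 22 *Acta2* ≥5 cells, as the rule makes likely. Its level there was 2118, 4845 and 2715 CPM in libraries 1, 2 and 3. In pericytes, which the rule held under 5 UMIs a cell, it was 3.28, 1.74 and 4.96 CPM, with a UMI in 21 of 2211 cells. It had a UMI in 0 of 41 *Dcn* ≥3 cells, and a count of 0 allows up to 7.32% of cells with a UMI, which is no limit on cells that express the gene, and up to 9.39 CPM there (counting error only). Astrocytes, which should lack the gene, were at 0.137, 0.0368 and 0.0360 CPM.

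Among the other actin-binding proteins, *Tagln* followed the actin, *Cald1* did not, and *Cnn1* was hardly seen. *Tagln* stood at 1652, 1916 and 2158 CPM in *Acta2* ≥5 cells and at 3.75, 1.45 and 6.61 CPM in pericytes, and 81.5% of its 476 UMIs lay in *Acta2* ≥5 cells. Not every *Acta2* ≥5 cell carried it: 16 of 22 had a *Tagln* UMI. In *Dcn* ≥3 cells it was 0, 81.3 and 7.84 CPM, which is 0, 9 and 1 UMIs in 0, 3 and 1 cells, so its level there came from a few cells of library 2. *Cnn1*, which is known to be abundant in visceral and large-vessel smooth muscle, had 2 UMIs in all barcodes, 1 of them in a pericyte. Its count of 0 in the 22 *Acta2* ≥5 cells allows up to 13.6% of cells with a UMI, again not of expressing cells, and up to 14.7 CPM.

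*Cald1*, whose gene gives caldesmon forms for smooth muscle and for other cells that these counts do not separate, had 57826 UMIs, 89.9% of them in pericytes, and was seen in 2210 of 2211 pericytes. Its level was 4657, 4485 and 4574 CPM in pericytes, 3280.3, 2929 and 2499 CPM in *Acta2* ≥5 cells, and 4454, 1789 and 1920.1 CPM in *Dcn* ≥3 cells. The pericyte values lay above all 3 of the *Acta2* ≥5 values. The *Acta2* ≥5 sums of libraries 1 and 3 include the cells that stood apart, with 17 of 288 and 15 of 220 *Cald1* UMIs. These cells gave 20.6% and 47.2% of the class totals, so they lower the *Cald1* CPM of this class there. In *Dcn* ≥3 cells library 1 was near the pericyte level and libraries 2 and 3 were well below it.

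The myosin genes were shared by both mural classes to unequal degrees. *Myh11* was 1128, 940.0 and 1045 CPM in *Acta2* ≥5 cells and 99.7, 87.0 and 99.996 CPM in pericytes, with no overlap of the libraries. In *Dcn* ≥3 cells it was 136, 9.03 and 7.84 CPM, which is 11, 1 and 1 UMIs, high in library 1 and near the floor in the others. Since pericytes were many, 76.4% of the 1425 *Myh11* UMIs still lay in pericytes and 15.2% in *Acta2* ≥5 cells. A *Myh11* UMI was seen in 24.7% ± 0.480 of pericytes (SD, n = 3 libraries) and in all 22 *Acta2* ≥5 cells, against 0.172% of astrocytes, a class that should lack it and whose cells were deeper than pericytes. With each cell thinned to 2000 UMIs the shares were 14.1% of pericytes and 77.1% of *Acta2* ≥5 cells.

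*Myl9* was high in both classes, at 1361, 1359 and 1399 CPM in pericytes and 1367, 3615 and 1829 CPM in *Acta2* ≥5 cells. In these sums library 2, with 5 *Acta2* ≥5 cells, was the high one, and library 1 was at the pericyte level. The sums of libraries 1 and 3 include the cells that stood apart, which held 6 of 120 and 19 of 161 *Myl9* UMIs. These cells gave 20.6% and 47.2% of the class totals, so they lower the *Myl9* CPM of libraries 1 and 3. The contrast with library 2 is thus not one of the remaining cells. In *Dcn* ≥3 cells *Myl9* was 1197, 885 and 423 CPM, below pericytes in each library. *Mylk* was 509, 510.0 and 526 CPM in pericytes, 934, 1374 and 681 CPM in *Acta2* ≥5 cells and 494, 181 and 133 CPM in *Dcn* ≥3 cells, so that the 3 classes did not overlap. UMIs of *Myl9* were seen in 96.4% and those of *Mylk* in 86.0% of the 2211 pericytes.

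The tropomyosins were higher where the actin was high. *Tpm1* was 339, 319 and 343 CPM in pericytes, 1663, 1808 and 1772 CPM in *Acta2* ≥5 cells and 136, 316 and 165 CPM in *Dcn* ≥3 cells. It was also the member that astrocytes held most of, at 48.5, 45.5 and 49.3 CPM, and by their number astrocytes gave 48.8% of its 8966 UMIs and pericytes 42.3%. *Tpm2* was 97.9, 97.5 and 103 CPM in pericytes and 957, 1410.0 and 840.5 CPM in *Acta2* ≥5 cells, with 61.7, 208 and 70.5 CPM in *Dcn* ≥3 cells, which lie on both sides of the pericyte level. *Des* was 81.0, 75.4 and 78.8 CPM in pericytes, 319, 181 and 193 CPM in *Acta2* ≥5 cells and 49.4, 72.3 and 47.0 CPM in *Dcn* ≥3 cells. Desmin UMIs were seen in 28.2% of pericytes and in 16 of 22 *Acta2* ≥5 cells.

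The first comparison asked how the *Acta2* ≥5 cells differ from pericytes in the genes that did not set the classes. Of the 7 tested members other than *Tagln*, 5 were higher in *Acta2* ≥5 cells, *Myh11*, *Tpm2*, *Tpm1*, *Des* and *Mylk*, and none was lower. UMIs were summed per class and library and tested by edgeR's quasi-likelihood test with library as a block, over 12233 genes (adjusted p by Benjamini-Hochberg, threshold 0.05). Among all genes, 4.5% were called higher and 3.81% lower, and the median log2 fold change was −0.31 against 1.57 for these 7 members. *Cnn1* was too low to test. *Tagln* was above 10 CPM in all 3 libraries only in *Acta2* ≥5 cells, so it is given as a value beside the count. The cells of this class were picked by *Acta2* in the same counts, so genes that go with *Acta2* from cell to cell were bound to move.

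The difference was 3.38 ± 0.19 for *Myh11* (log2 fold change ± SE, edgeR adjusted p = 9.5e-20), and that of *Tagln* was 8.81 ± 0.24. The actin-filament and intermediate-filament genes came next, with 3.24 ± 0.18 for *Tpm2*, 2.30 ± 0.15 for *Tpm1* and 1.57 ± 0.28 for *Des*. *Mylk* differed by 0.72 ± 0.19 (edgeR adjusted p = 0.00885). *Myl9* gave 0.50 ± 0.35 (edgeR adjusted p = 0.477), with a 95% interval (normal, from the SE) from −0.19 to 1.19, and *Cald1* gave −0.81 ± 0.44 (edgeR adjusted p = 0.315), from −1.67 to 0.05. Both intervals include 0 and reach past a log2 change of 1, upwards for *Myl9* and downwards for *Cald1*, so they do not show that these genes are equal in the classes. The call of *Mylk* was lost without library 2 (adjusted p = 0.341 by edgeR) and with DESeq2 (0.95, adjusted p = 0.067), and that of *Des* without library 1 (adjusted p = 0.064 by edgeR); both were lost in thinned cells.

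**Figure D2:**
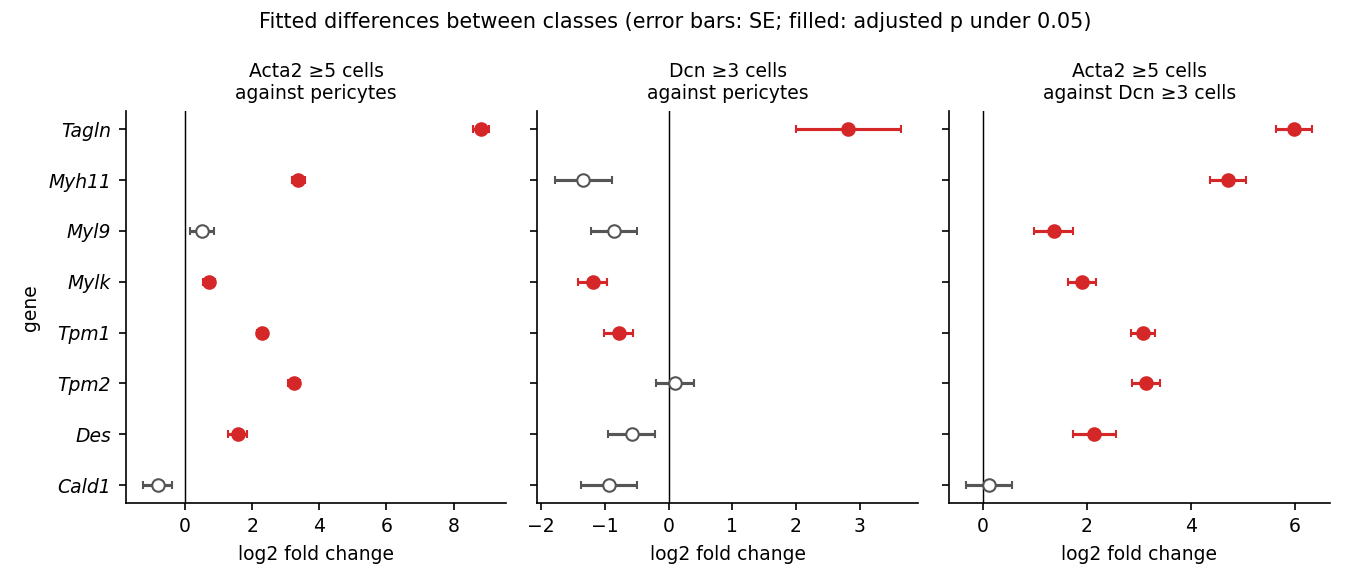
Log2 fold change (horizontal axis) of each of the 8 tested members with its SE (bars) in 3 comparisons between cell classes, from edgeR over class sums of 3 libraries; filled points had an adjusted p under 0.05. *Tagln* (8.81) and *Myh11* (3.38) lie furthest to the right for *Acta2* ≥5 cells against pericytes, where *Cald1* (−0.81) lies below 0.

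In the *Dcn* ≥3 cells 6 of the 7 tested members other than *Tagln* had fitted values below pericytes, 2 of them past the test. *Mylk* was lower by edgeR (−1.19 ± 0.23, adjusted p = 0.000225), as was *Tpm1* (−0.79 ± 0.23, adjusted p = 0.027), and *Tagln* was called higher (2.82 ± 0.82, adjusted p = 0.0246). Of all genes 4.39% were called higher and 1.68% lower; the median over the 7 members other than *Tagln* was −0.86 and over all genes −0.12. *Myh11* gave −1.34 ± 0.45 (edgeR adjusted p = 0.0666), and *Myl9*, *Cald1*, *Des* and *Tpm2* gave −0.86, −0.94, −0.58 and 0.10, none past the threshold. The *Tagln* call rested on 10 UMIs and turned to −0.30 without library 2. *Tpm1* lost its call in 9 of 15 alternative settings, among them without library 1 or 3 and with DESeq2 (adjusted p up to 0.508). *Mylk* lost its call in 3 of 15, without library 2 or 3 and with DESeq2, and *Myh11* passed without library 1 (−3.61, adjusted p = 0.00016 by edgeR).

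Within the *Dcn* ≥3 cells the members differed by whether the cell also held *Rgs5*, a split made after the values were seen and given with no test. The 27 cells with *Rgs5* had 67.5 CPM of *Myh11*, 1199 CPM of *Myl9* and 3767 CPM of *Cald1*. They had 1214 CPM of the pericyte channel gene *Kcnj8*, seen in 26 cells, and 51.9 CPM of the collagen gene *Col1a1*, whose 10 UMIs lay in 1 cell. Their median *Dcn* count was 3, the lowest that the rule admits. The 14 without *Rgs5* had no *Myh11* UMI, 142 CPM of *Myl9* and 616 CPM of *Cald1*, with a median *Dcn* count of 16. They had 63.2 CPM of *Kcnj8*, seen in 4 cells, 458 CPM of *Col1a1*, seen in 9, and 292 CPM of the fibroblast proteoglycan *Lum*, seen in 10. Their *Slc1a3* level was 1793 CPM. Of the 12 *Dcn* ≥3 cells of library 1, 11 had *Rgs5*, against 9 of 15 in library 2 and 7 of 14 in library 3. In library 1 *Cald1*, *Myl9*, *Mylk* and *Myh11* were at their highest in this class and *Tagln*, *Tpm1* and *Tpm2* at their lowest.

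Set directly against *Dcn* ≥3 cells, *Acta2* ≥5 cells were higher in 6 of the 7 tested members other than *Tagln*, beside 2.61% of all genes called higher and 3.04% lower. The differences were 5.99 for *Tagln*, 4.71 for *Myh11*, 3.14 for *Tpm2*, 3.09 for *Tpm1*, 2.15 for *Des* and 1.91 for *Mylk* on the log2 scale, and 1.36 for *Myl9* (edgeR adjusted p = 0.0195). *Cald1* gave 0.13, with a 95% interval from −0.74 to 1.00. The *Myl9* call was lost without library 2 (edgeR adjusted p = 0.322) or library 3 (edgeR adjusted p = 0.143) and with only the 2 classes in the fit (edgeR adjusted p = 0.0897), and that of *Des* without library 1 (edgeR adjusted p = 0.0516) and in thinned cells (edgeR adjusted p = 0.0535). All 8 members were higher in pericytes than in astrocytes, by 9.48 for *Cald1*, 8.64 for *Myh11*, 8.32 for *Myl9*, 8.20 for *Des*, 6.90 for *Mylk*, 5.99 for *Tpm2*, 3.34 for *Tagln* and 2.53 for *Tpm1*, in a comparison in which 38.3% of all genes were called higher and 40.9% lower.

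The split of all calls into higher and lower moved with the scaling. Of the calls between *Acta2* ≥5 cells and pericytes 54.2% were higher, 66.0% with RLE scaling (DESeq2's size factors in edgeR) and 75.0% with DESeq2. For *Dcn* ≥3 cells against pericytes the share was 72.4%, and 85.9%, 93.4% and 84.2% with RLE, DESeq2 and no scaling. For pericytes against astrocytes it was 48.4%, and 35.5%, 35.3% and 60.1% with the same. The median of all genes moved by as much as from −0.31 to 0.0 (DESeq2), from −0.12 to 0.08 (DESeq2) and from −0.03 to −0.32 (RLE and DESeq2) or 0.24 (no scaling) in these comparisons, and the 8 members in pericytes against astrocytes were called higher under each of the scalings.

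**Figure D3:**
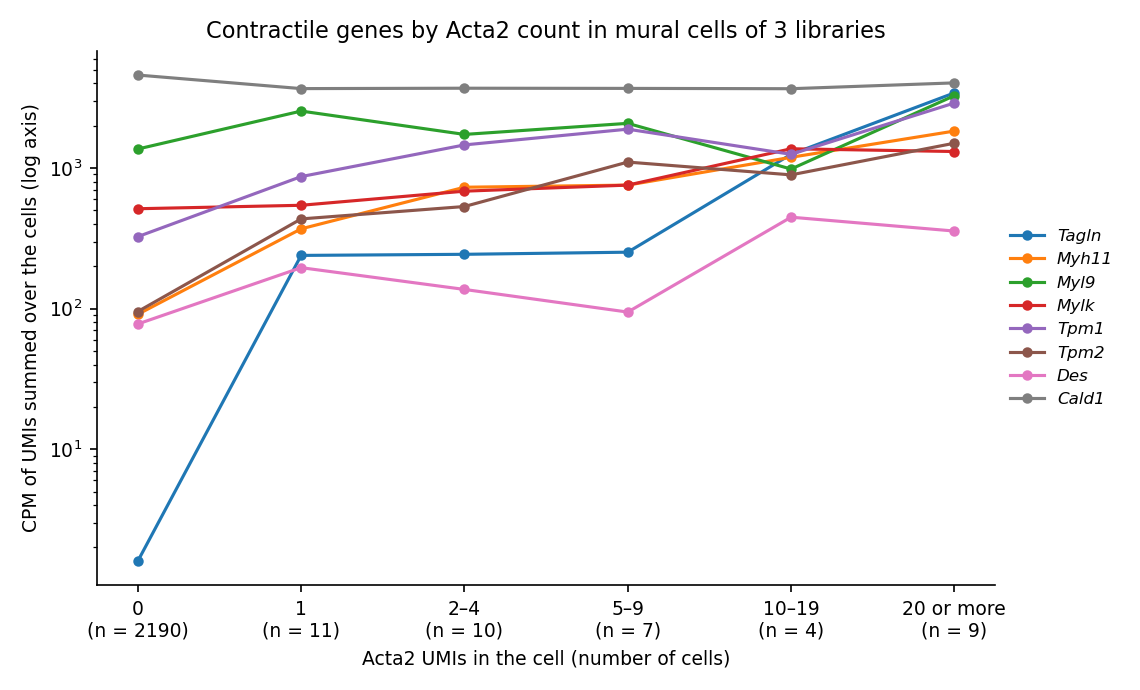
Level of 8 members in CPM of the summed UMIs (vertical log axis) over bins of *Acta2* UMIs per mural cell (horizontal axis, with the number of cells), all libraries together. *Tagln*, *Myh11* and *Tpm2* are higher in the last bin than in the first, and *Cald1* stays between 3667 and 4587 CPM.

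Bins of *Acta2* UMIs over mural cells show the members between the classes. Mural cells here had at least 10 UMIs of *Vtn* and *Rgs5*, at most 5 of *Slc1a2* and *Slc1a3* and under 3 of *Dcn*. Both *Acta2* ≥5 cells that stood apart above miss these limits and are in no bin, so the upper bins are not the *Acta2* ≥5 class. The bins of 0, 1, 2 to 4, 5 to 9, 10 to 19 and 20 or more UMIs held 2190, 11, 10, 7, 4 and 9 cells, so all but the first are thinly filled and are given as values. *Myh11* was 91.1, 369.5, 730.4, 756, 1193 and 1833 CPM over these bins. *Tpm2* was 95.4, 435, 533, 1103, 894 and 1502 CPM. *Tagln* was 1.60 CPM in cells without *Acta2*, 239, 243 and 252 CPM in the next 3 bins, and 1252 and 3424 CPM in the last ones. Cells with 1 to 4 *Acta2* UMIs, counted as pericytes by the rule, thus had *Myh11*, *Tpm1* (869 and 1461 CPM) and *Tagln* levels above those of cells with none (325 CPM of *Tpm1*).

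Other members moved less or without order over the bins. *Cald1* was 4587, 3674, 3698, 3687, 3667 and 4035 CPM, and *Myl9* 1366, 2543, 1735, 2079.6, 984 and 3271 CPM with no order. *Mylk* was 514 CPM in the first bin and 1311 CPM in the last. Among genes that are no members, the pericyte channel gene *Kcnj8* was 1066 CPM without *Acta2* and 89.1 CPM at 20 or more UMIs, *Vtn* was 12612 and 1540.1 CPM, and *Pln*, which encodes phospholamban, the inhibitor of the calcium pump of the sarcoplasmic reticulum, was 0.890 and 1413 CPM. *Vtn* set the mural class and cells with high totals reach the upper bins more easily, so these values describe the cells and test nothing.

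Cell by cell, the 22 *Acta2* ≥5 cells held from 5 to 71 *Acta2* UMIs (median 17.5) out of 3170 to 41593 UMIs in all (median 6706.5). *Tagln* ran from 0 to 69 UMIs (median 8.5), *Myh11* from 1 to 36 (median 6), *Myl9* from 3 to 53 (median 11.5), *Mylk* from 1 to 22 (median 8), *Tpm1* from 4 to 54 (median 10), *Tpm2* from 1 to 29 (median 8), *Des* from 0 to 9 (median 2) and *Cald1* from 3 to 54 (median 20). Every one of these cells thus held *Myh11*, *Myl9*, *Mylk*, *Tpm1*, *Tpm2* and *Cald1*, while *Tagln* and *Des* were missing from some. Per 10000 UMIs, Spearman's rank correlation with *Acta2* over the 22 cells was 0.665 for *Tagln*, 0.630 for *Tpm1*, 0.545 for *Myl9*, 0.478 for *Myh11*, 0.471 for *Tpm2*, 0.276 for *Mylk*, 0.180 for *Cald1* and 0.125 for *Des*. These describe cells of 3 libraries that share pools and differ in depth. Both counts were divided by the same cell total, which can by itself link them. The cells were picked by *Acta2*, and both cells that stood apart are included.

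**Figure D4:**
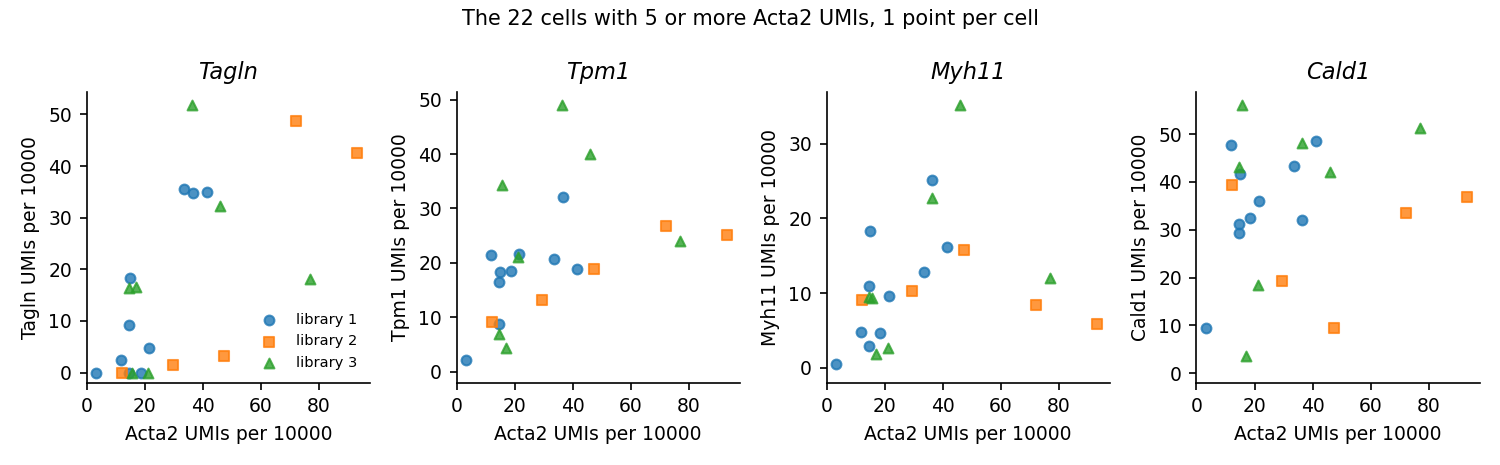
UMIs of *Tagln*, *Tpm1*, *Myh11* and *Cald1* per 10000 UMIs (vertical axes) against those of *Acta2* (horizontal axes) in each of the 22 *Acta2* ≥5 cells, with 1 point per cell, coloured and shaped by library. *Tagln* is at 0 in 6 cells, all in the lower part of the *Acta2* range, and the rank correlation with *Acta2* is lower for *Cald1* (0.180) than for *Tagln* (0.665).

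*Tagln* went with low *Vtn* counts in these cells. The 7 cells with 10 or fewer *Vtn* UMIs (4, 0 and 3 in the libraries) all held 19 to 69 *Tagln* UMIs, all held *Pln* and none held *Kcnj8*. Of the 15 cells with more *Vtn*, 9 held a *Tagln* UMI (range 0 to 57), 9 held *Pln* and 8 held *Kcnj8*. *Myh11* was 1267 CPM in the first set and 839 CPM in the second, and *Tpm2* was 703 CPM in the first and 1269 CPM in the second. The first set was the deeper one, with a median of 11520 UMIs a cell against 5462. The division was chosen after the values were seen and is given with no test.

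Genes around the contractile apparatus were followed in 5 lists, each counted beside the percentages called above. Of 15 other structural genes of smooth muscle tested in *Acta2* ≥5 cells against pericytes, 10 were higher and none lower. *Sncg* and *Pdlim3* reached the filter on low counts through the *Acta2* ≥5 cells alone and had to differ; without them 8 of 13 were higher, with a median of 2.68 against −0.31 over all genes. The largest values were those of *Sncg*, γ-synuclein (7.87), *Pdlim3*, a Z-disc adaptor (7.53), and the LIM proteins *Csrp1* (5.88) and *Csrp2* (4.75), all on the log2 scale. Of 13 genes listed as cytoplasmic counterparts, among them actins, myosin chains, tropomyosins, calponins and *Vim*, 2 were higher and 2 were lower. The list was set by name, and its genes, *Myl6* among them, are not all confined to non-muscle cells. Higher were the intermediate filament gene *Vim* (2.75) and the light chain *Myl6* (1.56). Lower were the non-muscle myosin heavy chain *Myh9* (−0.94) and the light chain *Myl12a* (−1.02), the latter not in the same direction in all 3 libraries.

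Regulators of myosin phosphorylation moved by less. Of 14 tested, 4 were higher, among them the myosin phosphatase subunits *Ppp1r12b* (1.43) and *Ppp1cb* (0.89) and the kinase *Rock1* (0.74), and the phosphatase inhibitor *Ppp1r14a* was lower (−0.98). Of 13 genes of calcium handling, 3 were higher, *Pln* (9.43), the cation channel *Trpc6* (2.12) and the chloride channel *Ano1* (0.68), and 3 were lower, among them the inositol trisphosphate receptors *Itpr2* (−1.99) and *Itpr1* (−1.26). Of 10 genes of SRF, its cofactors and mural transcription factors, 1 was called, *Myocd*, myocardin (7.49). *Pln* and *Myocd* too reached the filter through the *Acta2* ≥5 cells alone, and without them 2 calcium genes were higher and 0 genes of the SRF list. Without these, the list medians were 0.07, 0.26, 0.38 and −0.18 for the cytoplasmic, regulator, calcium and SRF lists.

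In *Dcn* ≥3 cells against pericytes few genes of the lists were called. The cytoplasmic genes *Myh9* (−0.93) and *Tagln2* (−0.90) were lower. Of the structural genes *Csrp1* was higher (3.26) and *Mustn1* lower (−2.74), and of the regulators *Calm2* (−0.89) and *Ppp1r14a* were lower. The potassium channel *Kcnma1* was higher (3.83), *Ano1* was lower, and so were *Foxs1* (−1.38) and *Tbx2* (−1.07), transcription factors of mural cells. *Csrp1* and *Kcnma1* are also abundant in astrocytes of these libraries, at means of 263 and 214 CPM, and the *Dcn* ≥3 cells carried the astrocyte UMIs given above, whose part in these calls was not tested.

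Against *Dcn* ≥3 cells, *Acta2* ≥5 cells showed 9 of 15 structural genes higher and 0 lower, or 7 of 13 without *Sncg* and *Pdlim3*. *Sncg* (547 CPM), *Pdlim3* (168 CPM) and *Synpo2* (37.9 CPM in the mean of 3 libraries) had no UMI in *Dcn* ≥3 cells, and *Mustn1* (6.12) and *Csrp2* (3.40) were higher on the log2 scale. Of the cytoplasmic genes *Myl6* (1.96), *Vim* (1.91) and *Tagln2* (0.97) were higher and 0 lower, and of the regulators 3 were higher, among them *Calm2* (1.27) and *Ppp1r12b* (1.26), and 0 lower. Of calcium handling, *Pln* (663 CPM against no UMI) and *Ano1* (1.80) were higher, and 3 were lower, among them *Itpr2* (−1.35) and *Itpr1* (−1.13). *Myocd* (103 CPM against no UMI) was the 1 call of the SRF list. *Pln* and *Myocd* reached the filter through the *Acta2* ≥5 cells alone and had to differ here too. Without them 1 calcium gene was higher and 3 were lower, and 0 genes of the SRF list were called.

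Between pericytes and astrocytes most genes of every list were called, as were most genes tested. In the cytoplasmic list 10 were higher, led by *Tagln2* (8.80) and *Cnn2* (8.05), and 2 lower, *Myh10* (−1.13) and *Cnn3* (−0.68). In the structural list 12 were higher, led by *Mustn1* (5.95) and *Smtn*, smoothelin (5.76), and 2 lower, *Csrp1* (−5.88) and *Synpo2* (−3.62). Of the regulators 9 were higher, led by *Ppp1r14a* (9.60) and the cGMP-dependent kinase *Prkg1* (8.38), and 3 lower by under 0.5 on the log2 scale, *Arhgef12*, *Ppp1r12b* and *Calm3*. Of calcium handling 9 were higher, led by the potassium channel subunit *Kcnmb1* (11.25), *Ano1* (10.42) and calsequestrin *Casq2* (10.09), and 4 lower, *Kcnma1* (−6.86), *Pln* (−2.85), *Cacna1d* (−1.19) and the calcium pump *Atp2a2* (−0.75). Of the SRF list 8 were higher, led by *Foxs1* (10.43), *Tbx2* (8.91) and *Tbx18* (8.28), and *Mrtfb* was lower (−1.19). The list medians were 2.07, 2.77, 0.59, 3.84 and 3.06 in this order, against 7.55 for the 8 members and −0.03 for all genes.

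The genes most like *Myh11* over the 12 class sums were *Litaf* (Pearson's r = 0.996), *Ackr3* (0.982), *Cap1* (0.979), *Dgkg* (0.977), *Mef2c* (0.975), *Lamb2* (0.972), *Serpini1* (0.971) and *Filip1* (0.971), out of 2012 genes at 50 CPM or more in the *Acta2* ≥5 cells of each library. Among the members r was 0.931 for *Mylk*, 0.928 for *Tpm1*, 0.917 for *Tpm2*, 0.909 for *Des*, 0.881 for *Myl9*, 0.824 for *Cald1*, 0.802 for *Acta2* and 0.728 for *Tagln*. *Litaf* had 13 UMIs in all *Acta2* ≥5 cells and the others of the 8 had 24 to 301, and *Myh11* had 1 UMI in the *Dcn* ≥3 sums of libraries 2 and 3. The top rank of *Litaf* thus rests on few counts. The 12 points share libraries and classes, and r is a description.

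The last comparisons asked whether the members of pericytes differed between the groups of mice. No member passed in any of the 6 pairs of groups. The hashtags gave 856 pericytes to 16 mice, 4 per group, with 38 to 104 pericytes and 179205 to 562079 UMIs a mouse. In libraries 1, 2 and 3, 851, 642 and 698 pericytes passed the cell filter. Of these, 478, 358 and 424 were assigned to a single hashtag, and 421, 243 and 192 to a hashtag listed for a mouse. The other pericytes were not used here. The 7 members with enough counts (*Myh11*, *Myl9*, *Mylk*, *Tpm1*, *Tpm2*, *Des*, *Cald1*) were tested in the 6 pairs, 42 comparisons in all. The tests were edgeR over 5688 genes with library in the model, and an exact permutation test (two-sided) over mice. With 4 against 4 the permutation test cannot go below 0.0286, and like the overlap of groups it takes no account of library. Library 2 held no NoFR mouse and library 3 no FC mouse. In edgeR, 0 of 42 passed (0 also by DESeq2) and 5 had an unadjusted p under 0.05, 4 of them *Myh11* and 1 *Myl9*. Of all genes, edgeR called 0.0% between FC and NoFC mice, 1.11% between NoFR and NoFC mice and 0.123% between FR and NoFC mice. It called 0.457% between NoFR and FC mice, 0.0% between FR and FC mice and 0.0879% between FR and NoFR mice. The pairs with no call had 249 genes (FC with NoFC) and 293 genes (FR with FC) at an unadjusted p under 0.05 by edgeR, and DESeq2 called 0 genes in each. The log2 fold changes of the 42 comparisons ran from −0.84 to 0.17.

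**Figure D5:**
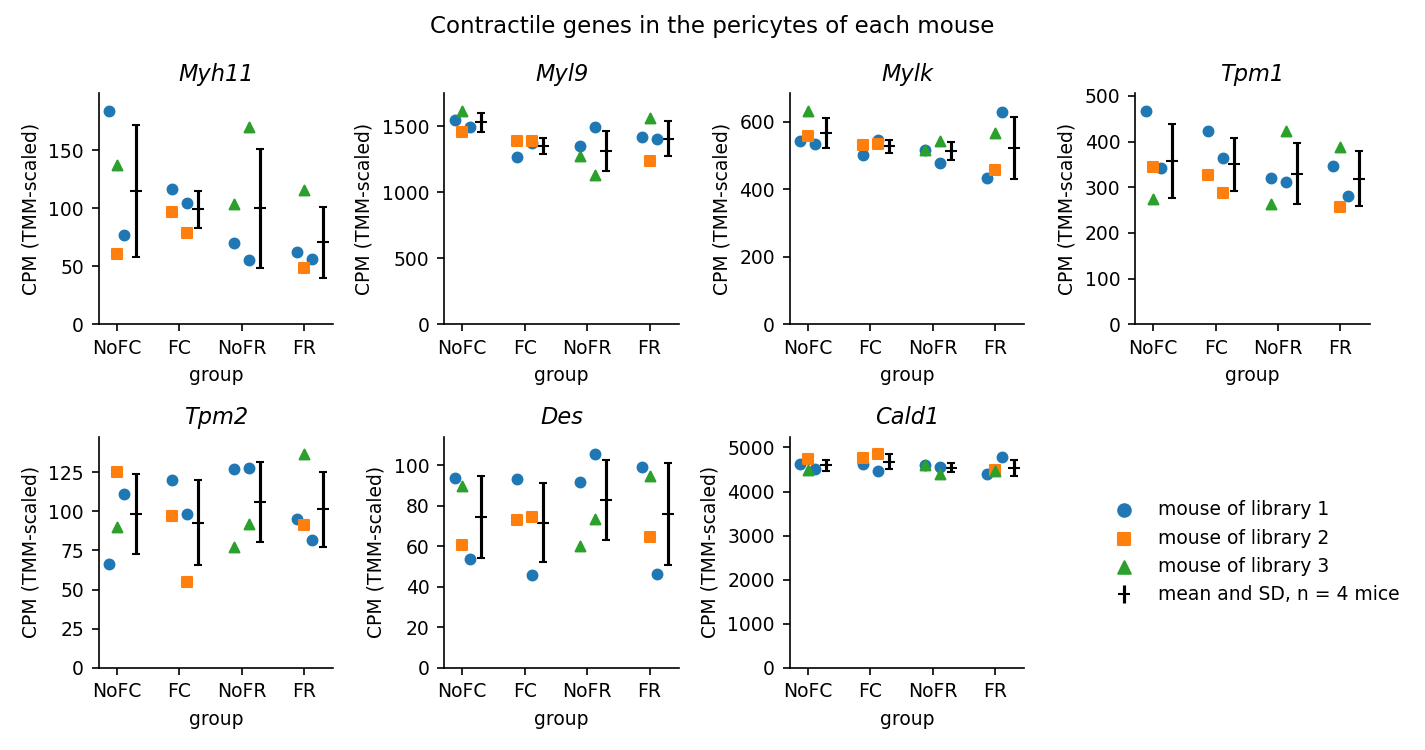
Level of the 7 tested members in the pericytes of each mouse, in CPM scaled by TMM (vertical axes from 0), by group, with colour and shape for the library and bars for the mean and SD of 4 mice. The groups overlap for *Myh11*, and for *Myl9* the FC mice (1265 to 1391 CPM) sit below the NoFC mice (1461 to 1620 CPM).

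*Myh11* had 4 of the 5 unadjusted p-values under 0.05. It was 184, 76.8, 60.9 and 137 CPM in NoFC mice, 117, 104, 97.0 and 78.6 CPM in FC mice, 70.0, 55.6, 104 and 170.4 CPM in NoFR mice, and 62.0, 56.3, 48.3 and 115 CPM in FR mice. FR mice had the lowest mean, 70.5 ± 30.5 CPM (SD, n = 4), from 15, 11, 9 and 33 UMIs, but all groups overlapped. The fit gave −0.84 ± 0.28 for FR against FC (p = 0.00376, edgeR adjusted p = 0.725, exact permutation p = 0.143) and −0.73 ± 0.25 for FR against NoFC (p = 0.00544, edgeR adjusted p = 0.569, exact permutation p = 0.2). For FC against NoFC it gave 0.11, opposite to the group means of 99.2 and 115 CPM, which do not take account of library. Within library 1, the one with 2 mice of each group, the means were 130.5 CPM for NoFC mice, 111 CPM for FC mice, 62.8 CPM for NoFR mice and 59.2 CPM for FR mice. In library 2 they were 60.9 CPM in the NoFC mouse, 87.8 CPM in FC and 48.3 CPM in the FR mouse, and in library 3 they were 137 CPM in the NoFC mouse, 137 CPM in NoFR and 115 CPM in the FR mouse. Without NoFC mouse 1 the difference of FR from NoFC was −0.31.

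*Myl9* was the member with groups that did not overlap. It was 1546, 1493, 1461 and 1620 CPM in NoFC mice and 1265, 1373, 1387 and 1391 CPM in FC mice (exact permutation p = 0.0286, the smallest possible, and 0.954 after adjustment over the 42 comparisons). The fit gave −0.16 ± 0.10 (edgeR adjusted p = 0.996). In this pair 3.01% of all genes had groups that did not overlap. That share was 5.1% between NoFR and NoFC mice, 3.36% between FR and NoFC mice, 4.64% between NoFR and FC mice, 3.27% between FR and FC mice and 3.59% between FR and NoFR mice, and none of the 7 members was among them. Within library 1 the *Myl9* means were 1519 CPM in NoFC and 1319 CPM in FC, and in library 2 they were 1461 and 1389 CPM. The *Myl9* comparison with an unadjusted p under 0.05 was another pair, NoFR against NoFC. It gave −0.24 ± 0.10 (edgeR p = 0.0192, edgeR adjusted p = 0.377, exact permutation p = 0.0857).

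For the other members no difference between groups was called. *Cald1* was 4592 ± 118 CPM for NoFC mice, 4676 ± 171 CPM for FC mice, 4537 ± 101 CPM for NoFR mice and 4537 ± 175 CPM for FR mice (SD, n = 4 each), and its log2 fold changes lay between −0.03 and 0.01. *Mylk* was 567 ± 45.0, 528 ± 19.1, 513 ± 27.1 and 522 ± 92.6 CPM in the same order, and *Tpm1* was 357 ± 80.9, 351 ± 58.3, 330 ± 67.2 and 319 ± 60.0 CPM. *Tpm2* lay between 92.6 and 106 CPM and *Des* between 71.7 and 82.9 CPM in the means. *Acta2* and *Tagln* had 11 and 21 UMIs in the pericytes of all 16 mice and *Cnn1* had none, too few to compare. The *Acta2* ≥5 cells of these mice, 4 of NoFC, 1 of FC, 2 of NoFR and 2 of FR mice, were too few for any comparison between groups.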

How the data were processed

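Single cells of the mouse amygdala were profiled in 3 libraries of pooled, hashtagged mice. The authors deposited UMI counts per gene and barcode, not normalized, aligned to mm10; the submitters' notes name Cell Ranger 3.0 and the matrix headers 7.0.0. Library totals were 42350059, 31700569 and 33368825 gene UMIs. From these counts, class sums per library and pericyte sums per mouse were tested in edgeR 4.0.16 (R 4.3.3; TMM, filterByExpr, quasi-likelihood, Benjamini-Hochberg). The 6 genes that set the classes counted in library sizes and were not tested. Class CPM use raw totals and mouse CPM are TMM-scaled; UMIs were not divided by gene length. CPM of classes are levels per 1000000 UMIs of the sum, so they weight deep cells more. The fitting code was run on simulated counts with no library effect and no outlying cells, which does not show its performance on these class sums.

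For the mice, barcodes of 100 or more genes whose mitochondrial share was below 6% were assigned by HTODemux (Seurat 5.3.0, quantile 0.99) through the deposited hashtag table; 1 hashtag with under 100 UMIs in a library was dropped there. Mice are replicates between groups; libraries, which are pools, between classes, so p-values over libraries measure only the spread between 3 pools. Classes of 1 library come from the same pool, which is the reason for the block. Scrublet marked 0.549%, 0.248% and 0.735% of barcodes as doublets, kept in the main sums and left out in an alternative. Floors are 3 counts at 95% confidence.

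The members and lists were chosen with earlier results of these data known. Named were the 10 members, up to 4 called genes per list and comparison with the largest change in the same direction in all libraries, any gene of a list called the other way, and the 8 genes most like *Myh11* by Pearson's r of log2(CPM + 1). Alternatives were RLE scaling, no scaling, DESeq2 1.42.0, no filter, other cell filters, other hashtag calls, no library term and leaving out replicates. Promoters are RefSeq's on GRCm38.p6 and gene positions GENCODE's on GRCm38, where 10 of 10 members matched by identifier. Values of a few genes of the lists are not reported here, though the counts of the lists include them.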

Additional observations from a re-analysis of the deposited data

Results flagged for a closer look

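Among the members in pericytes of single mice, 6 values stood far from the other 3 mice of their group by Dixon's criterion, out of 36 groups tested; chance flags about 1 in 20 groups, a rate that does not hold where the other 3 mice are all at 0, since any UMI is then flagged. That was so in 5 of the 6. For *Acta2* the high mice were NoFC mouse 1 (12.1 CPM, 4 UMIs), FC mouse 3 (4.04 CPM, 1 UMI) and FR mouse 4 (14.0 CPM, 4 UMIs), in groups whose other mice had no *Acta2* UMI. For *Tagln* they were FC mouse 3 (8.09 CPM, 2 UMIs) and FR mouse 4 (24.5 CPM, 7 UMIs), where again the other mice had none. FC mouse 3 and FR mouse 4 were thus high in both genes, at counts of 1 to 7 UMIs. For *Myl9*, FC mouse 1 was low, at 1265 CPM against 1373 to 1391 CPM in the other FC mice.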

How the results depend on the processing

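Leaving out 1 library at a time gave 637 to 817 genes called between *Acta2* ≥5 cells and pericytes (5 to 6 members higher), 260 to 1073 between *Dcn* ≥3 cells and pericytes (0 to 1 members higher, 0 to 4 lower), 400 to 589 between *Acta2* ≥5 and *Dcn* ≥3 cells and 9070 to 9241 between pericytes and astrocytes. The classes of 1 library share a pool, and dropping the library block kept the calls of members except in *Dcn* ≥3 cells against pericytes, where *Tagln* lost its call (0 members higher, *Tagln* adjusted p = 0.0662) and *Myl9* gained one (−0.89). Thinned to 2000 UMIs a cell, the first 3 comparisons called 523, 281 and 163 genes; *Cald1* became the 1 member called lower in *Acta2* ≥5 cells (−1.26), *Des* and *Mylk* lost their calls there, and in *Dcn* ≥3 cells 0 members were higher and 4 lower. Fitted with only the classes compared, *Dcn* ≥3 cells gave 329 calls against pericytes (0 members higher, 1 lower) and 164 against *Acta2* ≥5 cells. Without cells of over 5 *Slc1a2* and *Slc1a3* UMIs, an alternative chosen after seeing the data like those without scaling or without cells of 30000 or more UMIs, 128 genes were called in *Dcn* ≥3 cells against pericytes. Members lower in that comparison numbered 1 in this setting, with RLE, without scaling and with cells of 1 class only, 0 with DESeq2, and 4 without doublets. Signs reversed for *Tpm2* in *Dcn* ≥3 cells (−0.69 thinned, −0.71 to 0.45 without 1 library), *Tagln* there (−0.30 to 3.99 without 1 library), *Cald1* between *Acta2* ≥5 and *Dcn* ≥3 cells (−0.10 to 0.52 without 1 library, −0.016 with *Acta2* ≥10, −0.30 thinned, −0.11 without the astrocyte-count cells) and *Myh11* in FR against NoFC (0.084 at a hashtag quantile of 0.95). The causes were not tested.

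Between groups of mice, 0 members were called in every setting. The ways of calling hashtags did not give the same cells to each mouse. With MULTIseqDemux NoFC mice 1 and 2 had 202 and 1 pericytes, against 64 and 54 with HTODemux, and NoFR mouse 2 had 2 against 38. NoFC mouse 2 and NoFR mouse 2 were under the minimum of 10 pericytes and left out of that setting. All-gene calls were 38 (DESeq2), 32 (quantile 0.95) and 25 (MULTIseqDemux) for NoFR against NoFC, 1, 0 and 1 with the same for FR against NoFC and 12 without a filter, and 13, 7 and 15 for NoFR against FC, with 41 without a filter and 51 without the library term. FR against FC gave 1 with MULTIseqDemux. FR against NoFR gave 3 with RLE, 1 with DESeq2, 15 without a filter, 1 at quantile 0.95, 8 with MULTIseqDemux, 11 with strict calls and 3 with *Acta2* ≥5 cells added. Leaving out 1 mouse gave 0 to 2 calls for FC against NoFC, 32 to 76 for NoFR against NoFC, 0 to 8 for FR against NoFC, 16 to 31 for NoFR against FC, 0 to 3 for FR against FC and 3 to 7 for FR against NoFR. *Acta2* was seen in the pericytes of 5 of 16 mice, at 1 to 4 UMIs, and was not compared between groups.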
